A study of Drosophila melanogaster with 15 samples.

Results

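The genotype by radiation interaction asks which genes of adult fruit flies (Drosophila melanogaster) answered ionizing radiation differently in flies carrying a tardigrade gene than in control flies. It is the change of the Dsup lines after 1000 Gy minus the change of the control flies after the same dose, and it uses 15 of the 15 arrays of the series. The groups were Dsup flies after 1000 Gy (4 arrays), untreated Dsup flies (4 arrays), control flies after 1000 Gy (3 arrays) and untreated control flies (4 arrays). Every array held the RNA of 25 whole males, 3 days old. The Dsup arrays of a treatment are 4 different transgenic lines, numbered 1 to 4, each measured once untreated and once irradiated, while the control arrays are labelled as biological replicates and no separate control stocks are named. The genetic background of the lines and the transgene therefore cannot be told apart. Neither the promoter or driver of the transgene nor the time between irradiation and RNA isolation is stated in the sources used here, and the level of the transgene itself was not analysed here. Because whole bodies were measured, fewer cells of a type and less RNA per cell cannot be told apart.

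Dsup, the damage suppressor of a tardigrade, is a protein that binds nucleosomes and is known for shielding DNA of cultured cells from radiation. In flies, ionizing radiation breaks DNA and raises reactive oxygen species, and the p53 transcription factor, DNA repair enzymes, heat shock proteins and glutathione S-transferases belong to the known responses. Glutathione S-transferases join glutathione to reactive compounds, and the delta and epsilon classes are the large insect families of these enzymes.

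All levels and differences below are log2 values of Affymetrix probe sets after quantile normalization of the 15 arrays. A probe set was called where the adjusted p of limma's moderated test was below 0.05. An interaction below 0 means that the change after radiation was lower in Dsup lines than in control flies, which holds both for a smaller rise and for a larger fall. As deposited, the 4 groups differed in mean level (4.49, 4.04, 4.87 and 4.63 in the order of the groups above), and an offset that a group received before deposit cannot be told apart from a difference between groups. Pairs of irradiated control arrays held the same value at 6814 to 7744 of 18952 probe sets, and no other pair did so at more than 209. The difference between 3′ and 5′ probe sets of the actin and GAPDH controls, a sign of RNA degradation, averaged 1.31 and 1.12 in irradiated and untreated Dsup flies and 1.42 and 1.02 in irradiated and untreated control flies. The arrays also fell into 2 sets by the level of the hybridisation controls, spiked in before hybridisation. The lower set holds Dsup line 1 and control replicates 1 and 2 in both treatments, and the upper set holds the rest. The mean of 25 accessory gland genes lay between 9.11 and 9.27 in irradiated Dsup flies, 8.54 and 9.17 in untreated Dsup flies, 9.11 and 9.23 in irradiated controls and 8.07 and 8.72 in untreated controls. The mean of 18 genes of female flies lay between 2.72 and 2.92 in every Dsup array and between 2.78 and 2.88 in every control array.

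The radiation response differed between genotypes at 1705 of 18769 probe sets (9.08%), with 809 higher (4.31%) and 896 lower (4.77%) in Dsup lines. An interaction of at least 2-fold was called at 172 of them (0.916%), and an unadjusted p under 0.05 was found at 4551 probe sets (24.2%). Most calls lay among dim probe sets. The called share was 15.5% below the 40th percentile of mean level (1165 of 7508, the dim probe sets) and 4.8% from there upwards, the bright ones (540 of 11261; 230 or 2.04% higher and 310 or 2.75% lower, with 89 or 0.79% at least 2-fold). The plot of calls by level shows shares of 16.3%, 20.2% and 18.3% in the second to the fourth decile of level and 2.77% in the brightest decile. Taking 1 probe set a gene, 883 of 11982 genes were called (7.37%; 378 or 3.15% higher, 505 or 4.21% lower), and 448 of 9353 bright genes (4.79%).

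**Figure D1:**
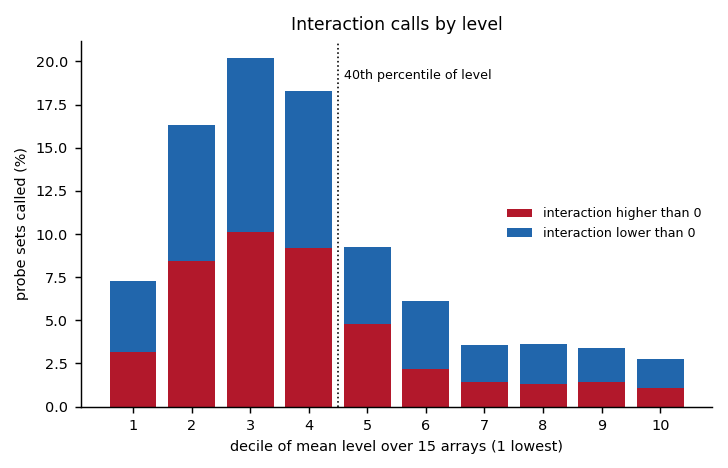
Share of probe sets called in the interaction (in %, y axis) by decile of mean level over the 15 arrays (x axis, 1 lowest), split into interactions above and below 0. The share peaks at 20.2% in the third decile and is 2.77% in the brightest one.

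The count of calls moved with several choices. When probe sets under the 40th percentile were left out before testing, 136 of 11261 were called, 52 higher and 84 lower, all of them among the 540. With the 3′ minus 5′ difference as a covariate 888 were called, of which 842 were among the 1705 with the same sign. With the spread estimated from the 3 groups other than the irradiated controls 973 were called. Without irradiated control 1, 2 or 3 the counts were 889, 863 and 965, and without Dsup line 3 in both treatments 1073. Within the lower set of 6 arrays limma called 0, with 3545 at an unadjusted p under 0.05, and within the upper set 36. On the deposited values 4298 were called, 3863 higher and 435 lower, and the median interaction of all probe sets was 0.23, against 0.02 after quantile normalization. After centring on ribosomal protein genes the split was 492 higher and 848 lower.

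The difference between genotypes lay more often in irradiated than in untreated flies. Among the 540 called bright probe sets, the genotypes differed after 1000 Gy alone at 267 (49.4%), in untreated flies alone at 154 (28.5%), in both with opposite sign at 25 (4.63%) and in neither at 94 (17.4%). The genotype difference was the larger of both after 1000 Gy at 334 (61.9%), and it had opposite signs before and after radiation at 489 (90.6%). Over all 1705 the shares were 46.6% after 1000 Gy alone and 30.9% untreated alone, with the larger difference after 1000 Gy at 60.0%. For comparison, Dsup lines differed from controls at 12% of all probe sets after 1000 Gy and at 10.7% untreated. On the deposited values, where untreated groups lie further apart, the larger difference stood after 1000 Gy at 11.9% of calls. The same arrays enter both differences, so these shares are a description with no test.

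**Figure D2:**
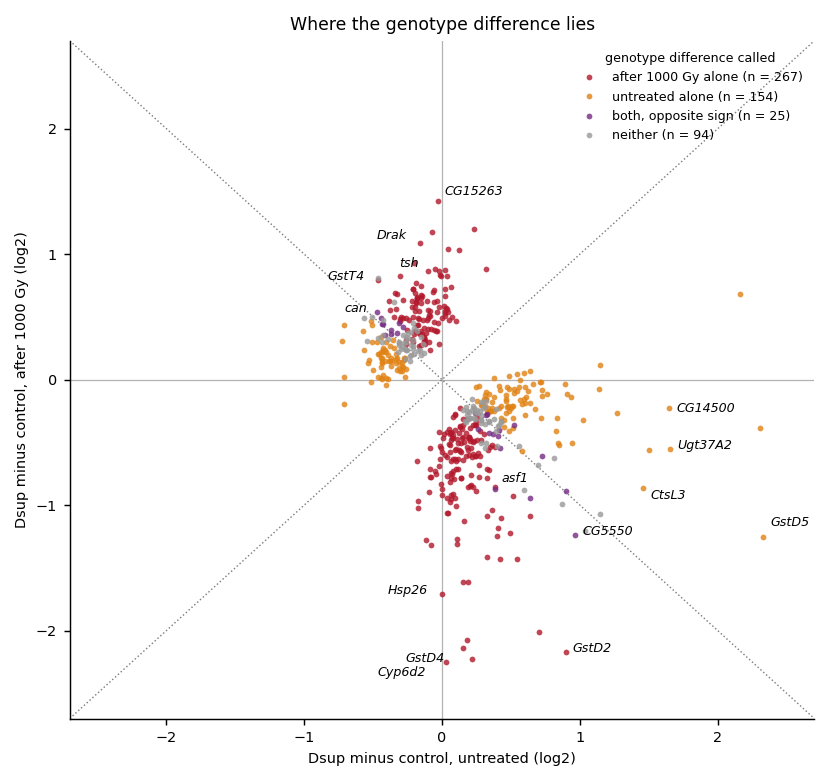
Genotype difference in untreated flies (x axis) against the genotype difference after 1000 Gy (y axis), both Dsup minus control in log2, for the 540 probe sets called in the interaction among bright probe sets. Colours give where the genotype difference was called; 267 points were called after 1000 Gy alone and spread along the y axis, and 154 untreated alone spread along the x axis.

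Seen from the side of radiation, most of these probe sets changed less in Dsup lines. Radiation changed 3993 probe sets in Dsup lines (21.3%) and 6375 in control flies (34%). Of the 540, the response was called in both genotypes with the smaller size in Dsup lines at 123 (22.8%), in Dsup lines alone at 66 (12.2%), in control flies alone at 332 (61.5%) and in opposite directions at 11 (2.04%). The Dsup response was the smaller in size at 467 of 540 (86.5%), and at 1157 of all 1705 (67.9%; 26.8% on the deposited values). Counted by gene, and whether called or not, 7662 of 11982 also had the smaller response in Dsup lines. A majority of this kind was therefore not particular to the called probe sets. The interaction contains both responses, so nothing is read from these shares beyond the count.

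The delta class of glutathione S-transferases held the 2 largest interactions of called bright genes, GstD5 and GstD2. Of 11 members 9 were called lower and 0 higher, beside 4.21% and 3.15% of all genes. The median interaction was -1.34 against 0.02 over all genes. After 1000 Gy 7 of the 11 rose in Dsup lines, where 10.3% of all genes rose, and 10 rose in control flies, where 18.5% did, while GstD11 fell in control flies. The class was chosen with earlier results of these data known.

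GstD5 stood at 10.01, 7.87, 8.68 and 9.13 in irradiated Dsup lines 1 to 4, at 7.26, 6.11, 9.10 and 6.87 in the same lines untreated, at 10.21, 10.33 and 9.98 in irradiated controls and at 5.17, 4.46, 5.29 and 5.10 in untreated controls. All untreated Dsup lines lay above all untreated controls, line 3 highest, while the irradiated groups overlapped through line 1. Its change after radiation was 1.59 in Dsup lines and 5.17 in control flies, an interaction of -3.58 ± 0.75 (SE; 12-fold; adjusted p = 0.00902). The genotype difference was called in untreated flies (2.33, adjusted p = 0.0111) and not after 1000 Gy (-1.25, adjusted p = 0.159). The interaction kept its call in each of 15 fits that left out 1 array, with an adjusted p of at most 0.0288.

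GstD4 showed the other location. It stood at 5.70, 3.55, 4.27 and 4.73 in irradiated Dsup lines, at 1.56, 1.76, 2.36 and 2.08 in untreated ones, at 6.79, 7.11 and 6.19 in irradiated controls and at 1.74, 1.74, 2.0 and 1.67 in untreated controls. The untreated genotypes overlapped, and every irradiated control lay above every irradiated Dsup line, of which line 1 came closest. All untreated values were below the 40th percentile of mean level (3.35), and whether such levels exceed background was not tested. The overlap of untreated flies therefore does not show equal levels. The rise was 2.62 in Dsup lines and 4.91 in controls (interaction -2.28 ± 0.49, adjusted p = 0.0106, called in all 15 fits without 1 array). GstD10, with a rise of 0.79 in Dsup lines and 2.32 in controls, had the same location (interaction -1.53 ± 0.33, adjusted p = 0.0101, called in all 15).

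GstD2 had the highest adjusted p of the called members. Its levels were 8.63, 5.67, 6.63 and 7.46 in irradiated Dsup lines, 4.48, 3.82, 7.08 and 4.69 in untreated ones, 9.26, 9.66 and 8.88 in irradiated controls and 4.15, 3.79, 4.58 and 3.96 in untreated controls. Line 1 was high among the irradiated Dsup lines and line 3 among the untreated ones. The interaction of -3.07 ± 0.91 (adjusted p = 0.0483) kept its call in 2 of 15 fits without 1 array, those without irradiated Dsup line 1 and without untreated Dsup line 2, and reached an adjusted p of 0.123 without irradiated control 2.

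The other called members were GstD1 (-0.84), GstD6 (-1.34), GstD7 (-0.85), GstD8 (-0.99) and GstD9 (-0.88), each with its genotype difference called after 1000 Gy and not before. GstD3 missed the call at an interaction of -1.37 ± 0.41 (adjusted p = 0.0503), and GstD11 stood at 0.11 (adjusted p = 0.775). In 9 of the 11 members irradiated Dsup lines were called lower than irradiated controls, as were 5.7% of all genes. The number of members called lower was 4 of 10 when dim probe sets were left out first, 3 with the 3′ minus 5′ covariate, 5 without irradiated control 2, 10 on the deposited values and 0 within each set of arrays, where the median interaction was -0.75 in the lower and -1.08 in the upper set. Probes of close relatives in such a family may bind each other's RNA, which was not tested.

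**Figure D3:**
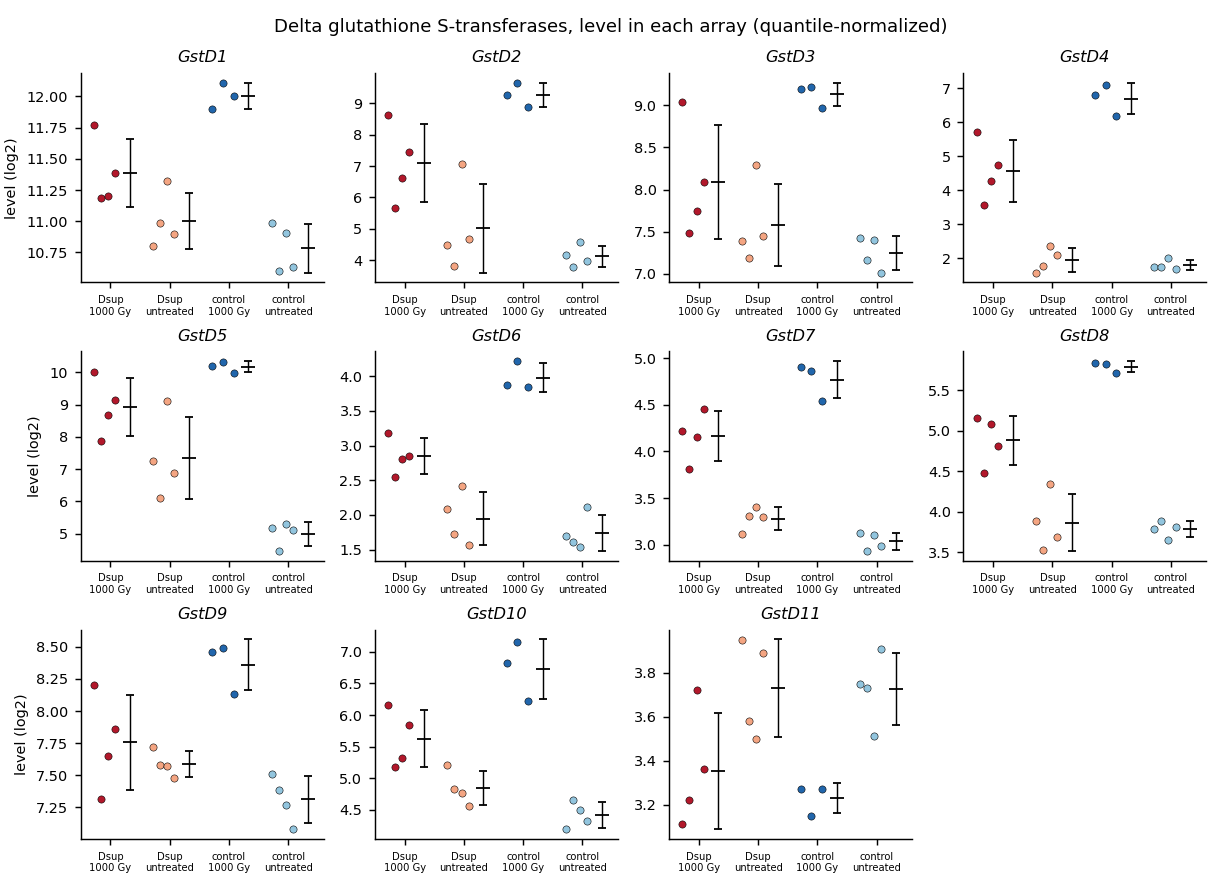
Level (log2, y axis) of the 11 delta glutathione S-transferases in each array, by group (x axis); points are arrays in the order of line or replicate number, bars the mean ± SD (n = 4, 4, 3 and 4). For GstD4 the 3 irradiated controls (6.19 to 7.11) lie above the 4 irradiated Dsup lines (3.55 to 5.70), and the untreated groups overlap.

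Of 13 epsilon glutathione S-transferases GstE1 alone was called, beside 4.21% of genes called lower. The interaction was below 0 for 12 of the 13 (median -0.33), 6 had an unadjusted p under 0.05, and the size of the response was smaller in Dsup lines for all 13. Of all 11982 genes, 5643 had an interaction below 0, 2632 such a p and 7662 the smaller response in Dsup lines. After radiation 4 members were called higher in Dsup lines and 9 in controls, beside 10.3% and 18.5% of all genes. Centring on array medians or on ribosomal protein genes gave 3 called lower, and leaving out dim probe sets or adding the 3′ minus 5′ covariate gave 0. Irradiated Dsup lines held it at 9.06, 8.23, 8.42 and 8.42, untreated ones at 7.93, 7.76, 8.22 and 7.83, irradiated controls at 9.39, 9.34 and 9.39 and untreated controls at 8.01, 7.52, 7.91 and 7.48. The irradiated groups did not overlap, and the interaction was -1.05 ± 0.24 (adjusted p = 0.0149, called in all 15 fits without 1 array). Of 18 genes for glutathione synthesis, Nrf2 factors and antioxidant enzymes 0 were called higher and 1 lower (median -0.11). Beside 3.15% and 4.21% of all genes, this count lay near the background. The 1 called was Gclc, which encodes the catalytic subunit of glutamate-cysteine ligase. Gclc was higher after radiation in control flies alone, with all irradiated controls at 8.41 or 8.42 and irradiated Dsup lines between 7.86 and 7.99 (interaction -0.54 ± 0.11, adjusted p = 0.00549, called in all 15).

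Of 10 theta, omega, sigma and zeta glutathione transferases 2 were called higher and 1 lower (median 0.07), beside 3.15% and 4.21% of all genes. The 2 called higher were of the theta class. GstT4 stood at 8.13, 9.02, 8.75 and 8.82 in irradiated Dsup lines, at 9.07, 9.69, 9.30 and 9.68 in untreated ones, at 7.75, 7.81 and 8.09 in irradiated controls and at 9.90, 10.09, 9.71 and 9.91 in untreated controls. It fell by 0.76 in Dsup lines and by 2.02 in controls, which gave an interaction of 1.26 ± 0.26 (adjusted p = 0.00812, called in all 15 fits). GstT3 had an interaction of 0.61 ± 0.18 (adjusted p = 0.0481), called in 2 of 15 fits, those without untreated Dsup line 2 and without irradiated Dsup line 1 (up to 0.12 without irradiated control 2). GstO3, of the omega class, had -0.63 ± 0.17 (adjusted p = 0.0284), called in 9 of 15 and up to 0.0827 without irradiated control 1. Its call was lost without irradiated control 1 or 2, untreated Dsup line 3, or irradiated Dsup line 2, 3 or 4.

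Among other detoxifying enzymes, 3 of 83 cytochrome P450 genes were called higher and 5 lower, and 3 of 35 UDP-glycosyltransferases higher and 5 lower. Over all genes 3.15% were called higher and 4.21% lower, so the P450 count lay near the background. Cyp6d2, a cytochrome P450, stood at 7.11, 5.29, 5.24 and 5.73 in irradiated Dsup lines, 3.93, 4.68, 5.40 and 4.97 in untreated ones, 7.94, 8.31 and 8.0 in irradiated controls and 5.02, 4.40, 4.73 and 4.71 in untreated controls. The untreated groups overlapped and the irradiated ones did not, with line 1 closest to the controls (interaction -2.28 ± 0.52, adjusted p = 0.0148, called in all 15 fits without 1 array). Within the lower set of arrays, which holds Dsup line 1, its interaction was -0.24, and within the upper set -2.88. Cyp18a1, an enzyme that inactivates the steroid hormone ecdysone, had an interaction of 1.01 ± 0.25 (adjusted p = 0.0205; 0.0643 without irradiated control 1), and a second probe set of it also gave 1.01 (adjusted p = 0.0158).

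Ugt37A2, a UDP-glycosyltransferase, differed before radiation. Untreated Dsup lines had 4.99, 4.79, 5.82 and 5.61 and untreated controls 4.10, 3.43, 3.84 and 3.24, with no overlap. Irradiated Dsup lines had 5.68, 4.41, 5.29 and 5.93 and irradiated controls 5.96, 6.0 and 5.69, which overlapped. Its change was 0.02 in Dsup lines and 2.23 in controls (interaction -2.21 ± 0.44, adjusted p = 0.0064, called in all 15 fits and with the 3′ minus 5′ covariate at an adjusted p of 0.0136).

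Heat shock genes were higher after radiation in control flies for the most part. Of 10 heat shock and chaperone genes 3 were called lower in the interaction and 0 higher (median -0.48), beside 4.21% and 3.15% of all genes. After radiation 2 of the 10 rose in Dsup lines, where 10.3% of all genes rose, and 7 in control flies, where 18.5% did. In irradiated Dsup lines 6 were lower than in irradiated controls, as were 5.7% of all genes. Hsp26, a small chaperone, had 9.38, 7.67, 8.26 and 8.25 in irradiated Dsup lines, 7.89, 7.53, 8.48 and 7.86 in untreated ones, 10.07, 9.87 and 10.36 in irradiated controls and 8.05, 7.77, 8.09 and 7.86 in untreated controls. The untreated groups overlapped, and the irradiated controls lay above the irradiated Dsup lines, of which line 1 was highest. The interaction was -1.71 ± 0.41 (adjusted p = 0.0177; 0.0546 without irradiated control 3).

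Hsp68, an inducible chaperone of the Hsp70 family, followed the same order with 8.09, 6.18, 6.75 and 6.51 in irradiated Dsup lines, 6.34, 6.11, 6.96 and 6.43 in untreated ones, 8.36, 8.19 and 8.92 in irradiated controls and 6.25, 6.01, 6.73 and 6.25 in untreated controls. Line 1 stood apart from the other irradiated lines and next to the controls. The interaction was -1.76 ± 0.48 (adjusted p = 0.0325), called in 5 of 15 fits without 1 array: those without untreated control 3, untreated Dsup line 1, 2 or 4 or irradiated Dsup line 1. Its adjusted p reached 0.0962 without irradiated control 3. Hsp27 had -0.97 ± 0.28 (adjusted p = 0.0435), also called in 5 of 15, those without untreated control 3, untreated Dsup line 2 or 4, irradiated control 2 or irradiated Dsup line 1, and up to 0.127 without irradiated control 3. The 3 calls became 0 when dim probe sets were left out first, 0 with the 3′ minus 5′ covariate and 0 without irradiated control 3. The median was -0.09 within the lower and -0.57 within the upper set of arrays.

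The p53 and radiation response genes held both called and uncalled members. Of 15 genes 4 were called lower and 0 higher, beside 4.21% and 3.15% of all genes. The median was -0.15, and 0.12 on the deposited values, where that of all genes was 0.23. No member was called when dim probe sets were left out first, 1 was with the 3′ minus 5′ covariate, and the list was chosen with earlier results of these data known. RnrL, the large subunit of ribonucleotide reductase, which makes the building blocks of DNA, had 5.34, 4.22, 4.25 and 4.42 in irradiated Dsup lines, 3.87, 3.58, 4.05 and 3.41 in untreated ones, 5.77, 5.87 and 5.77 in irradiated controls and 3.85, 2.67, 3.43 and 3.37 in untreated controls. The irradiated groups did not overlap and the untreated ones did. It rose by 0.83 in Dsup lines and by 2.47 in controls (interaction -1.64 ± 0.37, adjusted p = 0.0134, called in all 15 fits without 1 array and not with the 3′ minus 5′ covariate, adjusted p = 0.0611).

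Ku80, one of the subunits of Ku, which caps the ends of broken DNA, had 6.26, 5.35, 5.02 and 5.09 in irradiated Dsup lines, 4.44, 4.67, 4.65 and 4.71 in untreated ones, 6.46, 6.57 and 6.45 in irradiated controls and 4.58, 4.38, 4.40 and 4.98 in untreated controls. Line 1 was near the irradiated controls, and lines 2 to 4 were not. The interaction of -1.10 ± 0.31 (adjusted p = 0.0409) was called in 3 of 15 fits without 1 array, those without untreated control 4, untreated Dsup line 1 or irradiated Dsup line 1, and it reached 0.0997 without irradiated control 2. It was -0.21 within the lower and -1.28 within the upper set of arrays. The partner subunit Irbp had -1.28 ± 0.39 and was not called (adjusted p = 0.0568).

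Irbp18, a bZIP transcription factor, stood at 7.42 in irradiated Dsup line 1, inside the range of the irradiated controls (7.54, 7.68 and 7.40), and at 6.55, 6.56 and 6.50 in irradiated lines 2 to 4. Untreated Dsup lines had 6.48, 6.09, 6.23 and 6.43 and untreated controls 6.13, 6.15, 6.33 and 6.07. The interaction was -0.92 ± 0.25 (adjusted p = 0.032), called in 4 of 15 fits without 1 array, those without untreated control 3, untreated Dsup line 2 or 3 or irradiated Dsup line 1, and up to 0.0924 without irradiated control 2. Ets21C, a stress-inducible ETS transcription factor below the 40th percentile, had -0.94 ± 0.20 (adjusted p = 0.0106, called in all 15).

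p53 itself did not pass the test. It had 6.37, 6.18, 5.90 and 5.87 in irradiated Dsup lines, 5.19, 5.30, 5.70 and 5.59 in untreated ones, 6.37, 6.34 and 6.36 in irradiated controls and 5.44, 5.47, 5.41 and 5.62 in untreated controls. Both pairs of groups overlapped, and p53 rose by 0.63 in Dsup lines and by 0.87 in controls (interaction -0.24 ± 0.18, adjusted p = 0.461). A dim second probe set of p53 gave -0.44 (adjusted p = 0.0329). Corp, a p53 target, rose by 1.25 in Dsup lines and by 1.52 in controls (interaction -0.27 ± 0.21, adjusted p = 0.474). A p above the threshold does not show equal responses.

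**Figure D4:**
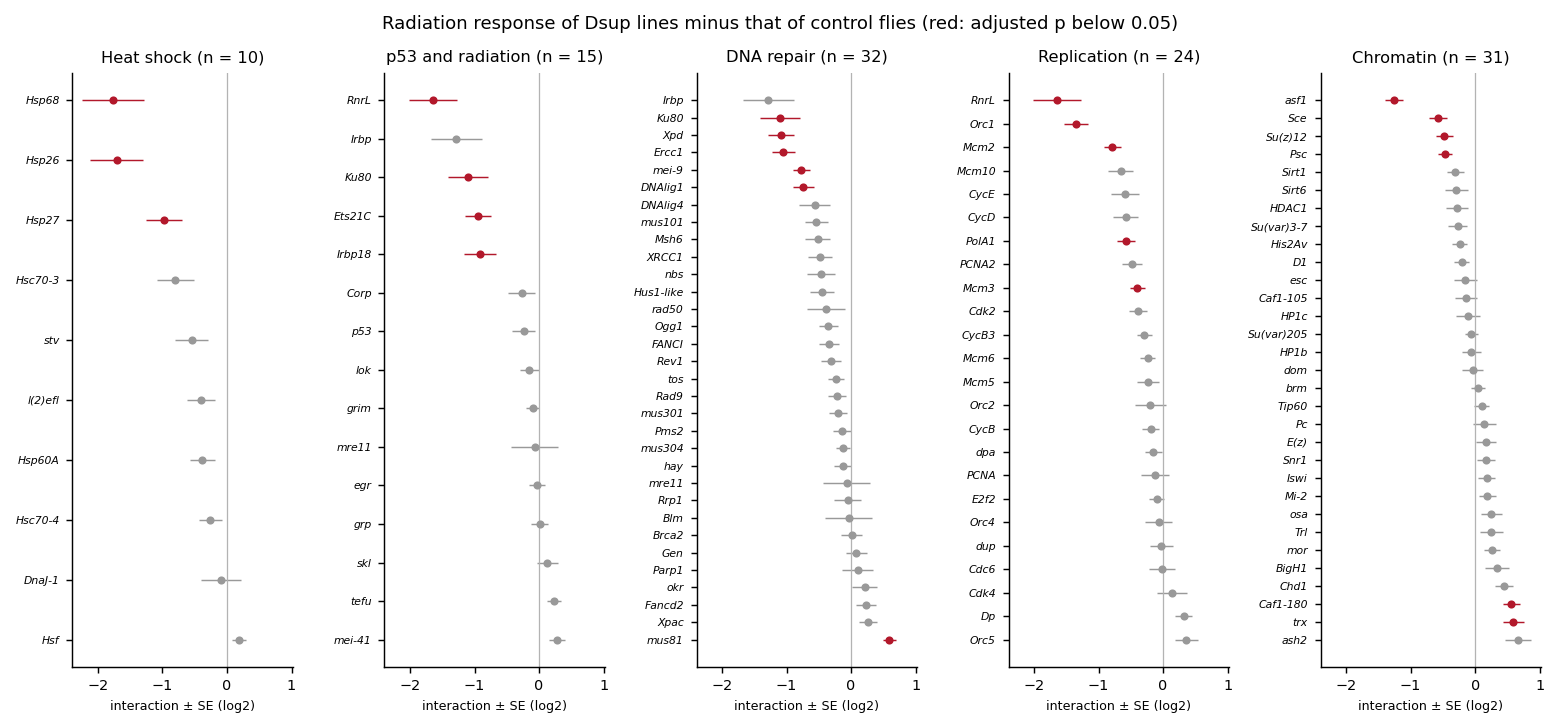
Interaction with its standard error (log2, x axis) of each member of 5 gene lists (heat shock and chaperones, p53 and radiation response, DNA repair, replication and cell cycle, chromatin regulators); red marks an adjusted p below 0.05. Red points lie below 0 except mus81 in the repair list and trx and the large subunit of chromatin assembly factor 1 in the chromatin list; RnrL, Ku80, Irbp and mre11 stand in 2 lists each.

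Among 32 DNA repair genes 5 were called lower and 1 higher, beside 4.21% and 3.15% of all genes. The median was -0.27, and 3 of 19 were lower and 0 higher when dim probe sets were left out first. The nuclease partners Ercc1 and mei-9, which cut DNA in nucleotide excision repair, were both among the 5 called lower. Ercc1 had 4.45, 4.17, 4.20 and 4.18 in irradiated Dsup lines, 4.12, 3.61, 4.07 and 3.81 in untreated ones, 5.06, 5.15 and 5.08 in irradiated controls and 4.02, 3.60, 3.56 and 3.63 in untreated controls. The irradiated controls stood clear of all other arrays (interaction -1.05 ± 0.18, adjusted p = 0.00284). The helicase gene Xpd, below the 40th percentile, fell by 0.42 in Dsup lines and rose by 0.66 in controls (interaction -1.08 ± 0.20, adjusted p = 0.00388).

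mei-9 moved in opposite directions. It had 3.35, 3.13, 3.12 and 3.11 in irradiated Dsup lines, 3.29, 3.60, 3.69 and 3.58 in untreated ones, 3.61, 3.59 and 3.62 in irradiated controls and 3.23, 3.11, 3.24 and 3.23 in untreated controls. Untreated Dsup lines lay above untreated controls, and irradiated Dsup lines below irradiated controls (interaction -0.77 ± 0.13, adjusted p = 0.00246). Ercc1, Xpd and mei-9 kept their calls in all 15 fits without 1 array and with the 3′ minus 5′ covariate (adjusted p = 0.0103, 0.0205 and 0.0131). The ligase gene DNAlig1 had -0.74 (adjusted p = 0.00949) and the nuclease gene mus81, a dim probe set, 0.59 (adjusted p = 0.00235).

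Of 24 replication and cell cycle genes 5 were called lower and 0 higher (median -0.24), RnrL among them. The shares over all genes were 4.21% lower and 3.15% higher. When dim probe sets were left out first 1 of 15 was called, with the 3′ minus 5′ covariate 2, and on the deposited values 2 were higher and 3 lower. Mcm2, a subunit of the helicase that opens DNA for copying, had 3.82, 3.68, 3.69 and 3.45 in irradiated Dsup lines, 3.44, 3.59, 3.60 and 3.42 in untreated ones, 4.23, 4.19 and 4.36 in irradiated controls and 3.38, 3.20, 3.37 and 3.32 in untreated controls. Untreated Dsup lines lay above untreated controls and irradiated Dsup lines below irradiated controls, with no overlap in either. The difference was larger in size after radiation (interaction -0.79 ± 0.13, adjusted p = 0.0018). Orc1, of the origin recognition complex, had an interaction of -1.35 ± 0.19 (adjusted p = 0.000955) at a dim probe set, with irradiated controls between 3.09 and 3.24 and every other array at 2.27 or lower. Mcm2 and Orc1 were called in all 15 fits without 1 array. The polymerase gene PolA1 (-0.57, adjusted p = 0.0205; 0.064 without irradiated control 3) and Mcm3 (-0.40, adjusted p = 0.0477) were the other 2 called, both at dim probe sets.

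Beside 3.15% of all genes called higher and 4.21% lower, the chromatin list of 31 genes held 2 higher and 4 lower (median -0.04). On the deposited values this turned to 7 higher and 1 lower (median 0.16), and 0 and 1 were called when dim probe sets were left out first and with the 3′ minus 5′ covariate alike. The histone chaperone gene asf1 had the largest of these interactions. It had 3.41, 3.35, 3.50 and 3.14 in irradiated Dsup lines, 3.36, 3.37, 3.22 and 3.42 in untreated ones, 4.40, 4.13 and 4.14 in irradiated controls and 2.89, 2.80, 3.01 and 3.12 in untreated controls. Dsup lines stood at one level in both treatments, between those of untreated and irradiated controls: the change was 0.01 in Dsup lines and 1.27 in controls (interaction -1.26 ± 0.14, 2.39-fold, adjusted p = 0.000267). The call held in all 15 fits without 1 array (at most 0.00141), after leaving out dim probe sets first (0.0022) and with the 3′ minus 5′ covariate (0.00192), and the values within the lower and upper sets of arrays were -1.36 and -1.08.

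The other lower members were Su(z)12 at -0.48 (adjusted p = 0.0368), Psc at -0.47 (0.0194) and Sce at -0.58 (0.0207; lost without irradiated control 1, 2 or 3, up to 0.0553). On the deposited values asf1 was the 1 lower member and these 3 were not called lower (adjusted p = 0.0784 for Sce). The histone methyltransferase gene trx had 0.59 ± 0.16 (adjusted p = 0.0367), called in 5 of 15 fits, those without untreated control 1 or 3, untreated Dsup line 2 or 4 or irradiated Dsup line 1, and up to 0.0884 without irradiated control 2. The large subunit gene of chromatin assembly factor 1, the complex that places histones behind the replication fork, had 0.56 ± 0.13 (adjusted p = 0.018; 0.0513 without irradiated control 3). The 25 other members were not called, among them the histone variant gene His2Av (-0.24 ± 0.12, adjusted p = 0.222).

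Among called bright genes the largest value above 0 was 1.46 ± 0.39, of CG15263 (adjusted p = 0.0324). This gene had 5.15, 5.67, 5.51 and 5.48 in irradiated Dsup lines, 5.93, 6.84, 7.11 and 6.49 in untreated ones, 3.81, 3.87 and 4.41 in irradiated controls and 7.36, 6.54, 6.60 and 6.0 in untreated controls. Both genotypes fell, the controls further, and only the untreated groups overlapped. The call held in 9 of 15 fits without 1 array; it was lost without untreated control 3, irradiated control 1 or 2, or irradiated Dsup line 2, 3 or 4 (up to 0.0901 without irradiated control 1).

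The transcription factor gene teashirt (tsh) had the smallest adjusted p of the genes described here that fell in controls alone. It had 4.08, 4.36, 4.18 and 4.10 in irradiated Dsup lines, 4.16, 4.21, 4.18 and 4.21 in untreated ones, 3.31, 3.30 and 3.31 in irradiated controls and 4.33, 4.24, 4.34 and 4.26 in untreated controls. The irradiated controls stood apart from all other arrays, and the untreated Dsup lines lay just below the untreated controls (a difference of -0.10 that was not called, adjusted p = 0.368). The interaction was 0.97 ± 0.10 (1.96-fold, adjusted p = 0.000185). All 15 fits without 1 array called it (at most 0.0013), as did the fit after leaving out dim probe sets (0.00155) and that with the 3′ minus 5′ covariate (0.0017).

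Drak, a kinase related to the death-associated protein kinases, had 3.74, 4.00, 3.95 and 4.11 in irradiated Dsup lines, 4.95, 4.52, 4.47 and 4.48 in untreated ones, 3.11, 2.63 and 2.85 in irradiated controls and 4.59, 4.98, 4.93 and 4.55 in untreated controls. It fell in both genotypes, by 0.65 in Dsup lines and by 1.90 in controls (interaction 1.25 ± 0.20, adjusted p = 0.00216). Gk2, a glycerol kinase gene, fell in controls alone (interaction 1.13 ± 0.22, adjusted p = 0.00612), and the sugar transporter-like gene CG6484 fell in both (1.03 ± 0.20, adjusted p = 0.00526). These 3 genes were called in all 15 fits without 1 array.

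Cannonball (can), a testis form of a general transcription factor, changed in opposite directions. It had 3.85, 3.41, 3.75 and 3.59 in irradiated Dsup lines, 3.34, 3.05, 3.26 and 2.94 in untreated ones, 3.13, 3.09 and 3.11 in irradiated controls and 3.63, 3.71, 3.63 and 3.49 in untreated controls. Dsup lines were below controls untreated and above them after 1000 Gy, with no overlap in either (interaction 1.01 ± 0.15, adjusted p = 0.0015, called in all 15 fits). Of 40 testis genes it was the only one called, beside 7.37% of all genes. The mean of the list lay between 7.01 and 7.18 in Dsup arrays and between 7.10 and 7.27 in control arrays.

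**Figure D5:**
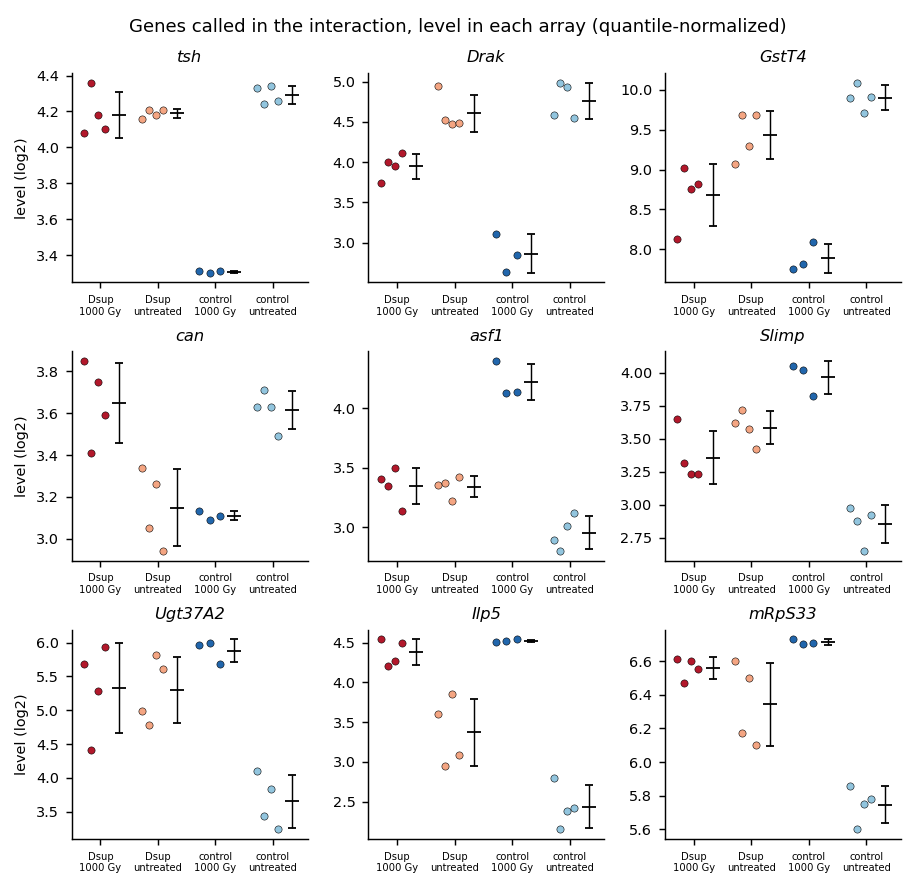
Level (log2, y axis) in each array by group (x axis) of 9 genes called in the interaction; points are arrays in the order of line or replicate number, bars the mean ± SD (n = 4, 4, 3 and 4). For tsh and asf1 the 3 irradiated controls stand apart from all other arrays (3.30 to 3.31 and 4.13 to 4.40); for Ugt37A2, Ilp5 and mRpS33 the 4 untreated controls do.

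For several genes the genotype difference was called in untreated flies alone. Ilp5, an insulin-like peptide, had 4.54, 4.21, 4.27 and 4.50 in irradiated Dsup lines, 3.60, 2.95, 3.85 and 3.09 in untreated ones, 4.51, 4.52 and 4.54 in irradiated controls and 2.80, 2.15, 2.38 and 2.42 in untreated controls. The irradiated groups overlapped and the untreated ones did not (interaction -1.08 ± 0.26, adjusted p = 0.0185, called in all 15 fits without 1 array, and 0.0571 with the 3′ minus 5′ covariate). The mitochondrial ribosomal genes mRpS33 (-0.75 ± 0.15, adjusted p = 0.00656) and mRpS2 (-0.74 ± 0.17, adjusted p = 0.0171) were the 2 called of 69, both lower, and both were called in all 15. Of all genes 4.21% were called lower, so this list was not called more often than genes at large.

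mRpS33 had 6.61, 6.47, 6.60 and 6.55 in irradiated Dsup lines, 6.60, 6.17, 6.50 and 6.10 in untreated ones, 6.73, 6.70 and 6.71 in irradiated controls and 5.86, 5.60, 5.75 and 5.78 in untreated controls. Dsup lines differed little between treatments, and the untreated controls were lowest. CtsL3, a cathepsin L protease gene, had the next largest interaction below 0 after GstD5 and GstD2 among the called bright genes with a symbol (-2.32 ± 0.65, adjusted p = 0.0378) and its genotype difference was called in untreated flies (genotype difference 1.46, adjusted p = 0.0473). Its arrays overlapped in both treatments, and the call held in 6 of 15 fits without 1 array, those without untreated control 4, untreated Dsup line 2, 3 or 4 or irradiated Dsup line 1 or 4, and reached 0.0982 without irradiated control 3.

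In Slimp and CG5550 the genotype difference had opposite signs before and after radiation, and neither pair of groups overlapped. The untreated controls of both genes lay below the 40th percentile of mean level (3.35), and whether such levels exceed background was not tested. Slimp, a mitochondrial relative of seryl-tRNA synthetase, had 3.65, 3.32, 3.23 and 3.23 in irradiated Dsup lines, 3.62, 3.72, 3.57 and 3.42 in untreated ones, 4.05, 4.02 and 3.82 in irradiated controls and 2.98, 2.88, 2.65 and 2.92 in untreated controls (interaction -1.33 ± 0.16, adjusted p = 0.000357). CG5550 had 5.90, 5.99, 5.36 and 4.80 in irradiated Dsup lines, 3.65, 3.00, 2.95 and 3.26 in untreated ones, 7.58, 6.31 and 6.36 in irradiated controls and 2.22, 2.38, 2.10 and 2.29 in untreated controls (interaction -2.20 ± 0.41, adjusted p = 0.00467). Both were called in all 15 fits without 1 array and with the 3′ minus 5′ covariate (adjusted p = 0.00268 and 0.0276). The potassium channel gene Shab showed the reverse pattern, below controls untreated and above them after 1000 Gy (interaction 0.76 ± 0.14, adjusted p = 0.00379, called in all 15).

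Of 17 antimicrobial peptide and immune recognition genes 1 was called higher and 2 lower (median -0.08), beside 3.15% and 4.21% of all genes. Called lower were the Toll ligand gene spz and, at a dim probe set, AttD (adjusted p = 0.0284, called in 9 of 15 fits without 1 array). The receptor gene Tl was called higher by its brighter probe set. The ligand gene rose by 0.54 in Dsup lines and by 1.26 in controls (-0.72 ± 0.16, adjusted p = 0.0144; 0.0525 without irradiated control 2). The receptor gene fell by 0.86 in Dsup lines and by 1.54 in controls (0.68 ± 0.19, adjusted p = 0.0348), a call kept in 5 of 15 fits, those without untreated control 1 or 4, untreated Dsup line 1 or 2 or irradiated Dsup line 1, and up to 0.0917 without irradiated control 1. A second, dim probe set of Tl was not called (-0.11, adjusted p = 0.807). Of 8 Bomanin genes, short immune peptides induced by Toll, 0 were called by limma and 1 had an unadjusted p under 0.05 (median -0.15), with values between -1.08 and 0.48. Over all genes 7.37% were called and 2632 of 11982 had such a p, so for 8 genes these counts lay near the background.

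Among digestive enzymes 3 of 43 genes were called higher and 1 lower, beside 7.37% of all genes called in either direction, so the count lay near the background. The 3 higher ones were the maltase genes Mal-A8 (0.88 ± 0.23, adjusted p = 0.0292), Mal-A6 (0.82 ± 0.23, adjusted p = 0.0367) and Mal-A1 (0.60 ± 0.17, adjusted p = 0.0431). The other Mal-A and Mal-B genes measured were not called, with interactions between -0.49 and 0.79. For each of the 3 called, the irradiated controls lay below all irradiated Dsup lines and the untreated groups overlapped. Mal-A6 had 9.54, 9.95, 9.70 and 9.61 in irradiated Dsup lines, 9.80, 10.69, 10.29 and 10.48 in untreated ones, 9.06, 8.82 and 9.20 in irradiated controls and 10.53, 10.45, 10.34 and 10.55 in untreated controls. The calls held in 9, 7 and 5 of 15 fits and were lost, for all 3 genes, without irradiated control 1 or 2 and without irradiated Dsup line 2 or 3. Untreated Dsup line 3 also ended all 3. Mal-A8 and Mal-A1 also lost theirs without irradiated control 3, Mal-A6 and Mal-A1 without untreated control 1, 2 or 4, and Mal-A1 without untreated Dsup line 1. The highest adjusted p were 0.0727, 0.112 and 0.101, each without irradiated control 2.

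Dim probe sets held some of the smallest p-values. Ugt49B2, a UDP-glycosyltransferase gene, fell by 0.57 in Dsup lines and rose by 0.65 in controls between levels of 1.39 and 2.36 (interaction -1.22 ± 0.11, adjusted p = 0.000139). Drsl2, a relative of the antifungal peptide drosomycin, fell by 0.58 in Dsup lines and rose by 0.86 in controls between levels of 1.39 and 2.44 (interaction -1.44 ± 0.15, adjusted p = 0.000195). Both were called in all 15 fits without 1 array. Of 7 drosomycin genes 3 were called lower and 1 higher, each below the 40th percentile. Of all dim probe sets 15.5% were called, and of all genes 4.21% were called lower and 3.15% higher. Detection calls were not used here, so whether such levels exceed background was not tested. The same limit holds for groups under 3.35 in genes with a higher mean, among them Slimp, CG5550, Ilp5, asf1, can, tsh and Drak.

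Large radiation responses did not always differ between genotypes beyond the spread. The 6 antennal genes, which had the strongest falls of any list, held 0 calls in the interaction and 0 at an unadjusted p under 0.05 in limma. Of all genes 7.37% were called and 2632 of 11982 had such a p, so 0 of 6 is not far from these shares. The interactions of the 6 ran from 0.09 to 1.47 (median 0.62). None of them was below 0, where 5643 of all 11982 genes were, and Orco stood at the lower end. The odorant coreceptor gene Orco had 2.47, 2.24, 2.98 and 2.12 in irradiated Dsup lines, 4.32, 5.03, 3.41 and 4.79 in untreated ones, 2.33, 2.32 and 2.28 in irradiated controls and 3.92, 4.24, 4.45 and 4.72 in untreated controls (interaction 0.09 ± 0.42, adjusted p = 0.929). Dsup line 3 was the lowest untreated and the highest irradiated line. The mean of the 6 genes lay between 3.19 and 4.62 in irradiated and 4.19 and 6.53 in untreated Dsup lines, against 3.11 to 3.65 and 5.59 to 6.40 in irradiated and untreated controls. The insulin receptor gene InR also had falls in both genotypes, by 1.76 in Dsup lines and by 1.86 in controls (interaction 0.11 ± 0.46, adjusted p = 0.921).

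Limma called none of 25 accessory gland genes (median -0.36), 12 fat body genes (-0.55), 18 muscle genes (0.12), 12 hemocyte genes (-0.24), 41 cytosolic ribosomal protein genes (0.09), 69 genes of oxidative phosphorylation (0.10) and 11 circadian clock genes (-0.02). In the same order of lists, an unadjusted p under 0.05 was found for 5, 4, 0, 3, 4, 4 and 0 genes. Of all 11982 genes 2632 had such a p. The values of the fat body list ranged from -2.49 to 0.01, and its mean was 8.06 to 8.57 in irradiated and 7.74 to 8.82 in untreated Dsup lines, 8.05 to 8.24 in irradiated and 6.59 to 7.56 in untreated controls. The standard error of the interaction had a median of 0.166 over all bright probe sets. Over all 42 lists 118 of 1204 members were called, beside 883 of all 11982 genes (7.37%).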

How the data were processed

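RNA of whole male flies was measured on 15 Affymetrix arrays. The deposited log2 values of 18952 probe sets were used; per the labels, biotinylated cRNA was made with a 3′ IVT kit, and how the authors corrected background, summarised probes and scaled arrays is not given in the sources used here. All arrays were quantile normalized together, 183 control probe sets were left out, and 18769 were fitted in R 4.3.3 with limma 3.58.1 as 4 group means with empirical Bayes moderation. Benjamini-Hochberg adjustment ran over all probe sets, with a threshold of 0.05. Gene names came from the platform annotation: 13647 probe sets had 1 symbol, 402 several and 4720 none, and each of 11982 genes was represented by its brightest probe set.

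Genes are named by size of the called interaction among bright probe sets, those with a mean from the 40th percentile (3.35) upwards, by class of location and from each of 42 lists. Members, lists and tests were chosen with earlier results of these data known. Same-numbered Dsup arrays are the same line per the labels; deviations from group means correlated at 0.03, 0.10, -0.09 and -0.13. P-values measure only the spread between these samples, which may be technical for the controls. Array number limits the precision. Fits were tested on simulated data. Alternatives covered scaling, the filter on dim probe sets, moderation, spread, blocks, RNA quality, spike-in sets and leaving out arrays.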

Additional observations from a re-analysis of the deposited data

Results flagged for a closer look

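The radiation response differed between genotypes, by the test of the interaction itself, at 1705 probe sets. Single arrays stood far from the rest of their group in 22 of 369 gene and group pairs tested (5.96%), where chance gives about 1 in 20.

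Among irradiated Dsup lines, line 1 stood apart for Irbp18 (7.42, others 6.50 to 6.56), Ercc1 (4.45, others 4.17 to 4.20), mei-9 (3.35, others 3.11 to 3.13), Tl (5.31, others 5.78 to 5.85) and MED10 (6.98, others 6.65 to 6.67). Line 3 stood apart for the odorant-binding gene a10 (5.67, others 3.96 to 4.21), and line 4 for Rpn13R (5.43, others 5.64 to 5.68), Sce (4.23, others 4.53 to 4.57) and Taf10 (6.35, others 6.24 to 6.25).

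Among untreated Dsup lines, line 1 stood apart for Drak (4.95, others 4.47 to 4.52) and Cpr72Eb (1.99, others 2.28 to 2.32), line 2 for Mal-A8 (8.96, others 8.38 to 8.45), line 3 for CG8620 (5.81, others 4.64 to 4.76) and Os-C (5.07, others 7.01 to 7.22), and line 4 for Lst8 (4.67, others 4.94 to 4.98).

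Among untreated controls, replicate 1 stood apart for Ercc1 (4.02, others 3.56 to 3.63) and Mal-A8 (9.23, others 8.56 to 8.62), and replicate 2 for mei-9 (3.11, others 3.23 to 3.24) and Ugt302K1 (1.60, others 1.75 to 1.78). Replicate 4 stood apart for the clock gene tim (8.67, others 7.39 to 7.51), Rdl (5.84, others 6.06 to 6.10), Act79B (11.92, others 12.11 to 12.13) and the 18S ribosomal RNA control probe set (7.481, others 12.01 to 12.34).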

How the results depend on the processing

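Counts of called probe sets are given as interaction, interaction among bright probe sets, Dsup minus control after 1000 Gy, Dsup minus control untreated, radiation response of Dsup lines and that of controls (1705, 540, 2246, 2010, 3993 and 6375), then list members called (118), the share of calls with the larger genotype difference after 1000 Gy (60.0%) and the share with the smaller response in Dsup lines (67.9%). Only values that moved are given, and the cause was not tested. Deposited values gave 4298, 1735, 11606, 16742 and 14489 for the first 5, 235 members and shares of 11.9% and 26.8%, so that both majorities turned into minorities, with 3863 interactions called higher and 435 lower (809 and 896 as reported) and 7 chromatin regulators higher and 1 lower. Median centring gave 4307 after 1000 Gy, 3186 untreated and shares of 64.7% and 76.7%. Centring on ribosomal protein genes gave 3522 after 1000 Gy and shares of 65.0% and 72.4%. Leaving out dim probe sets first, which also tests fewer, gave 136, 136, 477, 324, 1914 and 4052, 19 members and shares of 67.6% and 91.2%. The spread of the other 3 groups gave 973, 252, 1136 untreated and 71 members. The covariate gave 888, 183, 2302 for Dsup lines, 1825 for controls, 58 members and a second share of 70.7%. Within the lower set, with fewer arrays, the values were 0, 0, 0, 0, 32 and 3297, with 0 members (3545, 2855 and 4006 at an unadjusted p under 0.05 for the interaction, after 1000 Gy and untreated); within the upper set 36, 17, 92, 31, 1671 and 1307, with 8 members and shares of 80.6% and 88.9%.

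Leaving out 1 array gave 863 to 1886, 206 to 714, 1057 to 2623, 1385 to 2078, 3043 to 4295 and 4621 to 6618, with 61 to 141 members and shares of 55.4 to 66.2% and 63.1 to 70.5%. Leaving out a Dsup line in both treatments, chosen after seeing the data, gave interaction counts of 1777, 1179, 1073 and 1477 for lines 1 to 4, and 681, 330, 241 and 469 among bright probe sets. Without line 1 the count after 1000 Gy was 2815. Without line 3 the untreated count was 1182, with 68 members and a second share of 62.2%. Without lines 2 and 4 Dsup lines gave 2464 and 2660, and the first share was 65.3% without line 1 and 56.7% without line 4.

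With the Dsup lines as a replicate block 1757 were called, 1536 of them shared with the 1705; 93 of the 100 called named genes kept their call, and CG42807, Cyp6a23, Obp57b, EbpII, Rdl, Rpn13R and Taf10 did not (adjusted p 0.053 to 0.0658). With the numbers of both genotypes as a replicate block the values were 955, 274, 71 members and shares of 63.1% and 72.4%; control numbers correlated at -0.13, 0.21 and -0.14 and are not known to pair the arrays. Of the 100 called named genes 51 were called in every fit without 1 array, 44 with the covariate and 23 after leaving out dim probe sets. Probe sets with values shared between irradiated control arrays were called at 11.1%, the rest at 5.98%. These shares were 5.35% and 4.3% among bright probe sets, and 16.1% and 13.1% among dim ones. Dim were 6083 of the 11350 with shared values and 1425 of the 7419 others.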
